A study of Mus musculus with 8 samples.

Results

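The genes examined were *Bcl6*, *Il21*, *Sh2d1a*, *Cd40lg*, *Slamf6*, *Tox*, *Tox2* and *Tox4*, which belong to the program of follicular helper T (Tfh) cells or to the TOX family of nuclear proteins. They were chosen by symbol, with earlier results of these data known, and 8 of 8 were among the 11233 genes of the deposited table. Expression was measured by bulk RNA-Seq in 8 libraries, 4 from CCR8+ and 4 from CCR8- conventional CD4+ T (Tconv) cells that were sorted by FACS as negative for Foxp3-EGFP. The T cells were taken from subcutaneous tumors of the mouse melanoma line B16-F10 in Foxp3EGFP-DTR mice that had been given diphtheria toxin (DTx). In this strain the endogenous *Foxp3* gene drives EGFP together with a receptor for the toxin, so both groups share the genotype, the tumor and the depletion of regulatory T (Treg) cells, and no library from mice with intact Treg cells was analysed here. Mice were 8 to 14 weeks old, received 4 injections of 1 μg of DTx between day 7 and day 13 after implantation, and their T cells were isolated on day 16. The replicates of both groups carry the numbers 1 to 4, and the sources used here do not state whether a number stands for 1 mouse. P-values therefore measure the spread between these samples.

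Tfh cells are CD4+ T cells that enter B cell follicles and help B cells in germinal centers. *Bcl6* encodes the transcriptional repressor that defines them, *Il21* and *Cd40lg* encode the cytokine and the surface ligand through which they act on B cells, and *Slamf6* and *Sh2d1a* encode a SLAM family receptor and the adaptor SAP that binds the tails of such receptors during contact with B cells. TOX proteins bind DNA through a high mobility group box. *Tox* is best known for exhausted T cells, *Tox2* for both Tfh and exhausted T cells, and *Tox4* for a widely expressed protein of a phosphatase complex. The question here was whether intratumoral CCR8+ and CCR8- Tconv cells differed in these genes.

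*Il21* and *Tox2* were higher in the CCR8+ library of each of the 4 same-numbered pairs, with mean levels 5.55 and 5.42 times those of CCR8- cells (3.5 and 2.41 times without CCR8+ replicate 3), and in both genes 1 CCR8- library overlapped the CCR8+ range. *Slamf6* and *Tox4* were lower in the CCR8+ library of all 4 pairs, with smaller log2 fold changes (−0.67 and −0.27), and for *Slamf6* this was 3 of 4 pairs with totals set to 1000000 or with TMM factors. *Bcl6*, the repressor that defines Tfh cells, had at most 83.3 normalized counts in any library and did not separate the groups. *Cd40lg*, *Sh2d1a* and *Tox* overlapped broadly. None of the 8 genes passed the test with limma, which asked for a fold above 3 and an adjusted p under 0.05, and 0.0% of the 11032 genes tested did. The smallest adjusted p of any gene tested was 0.788. The sort marker *Ccr8* was not called either, with a log2 fold change of 2.37 and an adjusted p of 0.829 by limma. A gene not called here is therefore not shown to be unchanged. At an unadjusted p under 0.05 there were 3 of the 8, namely *Il21*, *Tox2* and *Slamf6*, against 5.09% of all genes tested. The direction was the same in every pair for 4 of the 8, whereas 8.44% of all genes were higher and 8.1% lower in CCR8+ cells in 4 of 4 pairs. Because the 8 genes were chosen with earlier results of these data known, these shares are a description and not a test of enrichment. The median log2 fold change was −0.21 over the 8 genes, 3 of them positive, and 0.04 over all genes tested.

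Depth and missing genes touch these results. The libraries held between 12067780 and 17802628 reads, and 3 reads, the limit that a count of 0 allows, were worth 2.21 to 3.42 normalized counts. CCR8- replicate 1 stood apart, with 8569 genes detected against 9544 to 10882 elsewhere, and 242 genes were at 0 in it although every other library held 100 or more normalized counts of them. CCR8+ replicates 1 and 3 had 44 and 36 such genes, and the other 5 libraries had 0. *Il21*, *Tox2* and *Bcl6* were at 0 in CCR8- replicate 1, and *Tox2* was among the 242, so log2 fold changes of these genes are given with and without that library. The T cell markers (8 of 11 in the table) summed to between 66539 and 108523 normalized counts per library. The B cell list (6 of 9) summed to 0 to 926 in CCR8+ and 74.9 to 833 in CCR8- libraries, with *Ms4a1*, which encodes the B cell protein CD20, at 0 in every library.

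The regions before the start sites of *Il21* and *Tox2* are shown because the levels of these genes moved together across the libraries. RefSeq (GRCm38.p6) start sites were matched for 5 of the 8 genes, *Bcl6*, *Il21*, *Slamf6*, *Tox2* and *Tox4*. Both strands of the 250 bases before each start were searched for the letters of 6 motifs, and the share of 32851 promoters of this length that hold each is given with it. GGAAA, the core bound by NFAT, was held by 55.6%. The AP-1 letters TGANTCA were held by 6.75% and the STAT letters TTCNNNGAA by 7.02%. CTTTGA, bound by TCF and LEF factors, was held by 13.8%. The GATA letters AGATAA were held by 9.99%, and TGACG, the CRE half-site, by 17.8%. Capitals mark GGAAA or its reverse complement TTTCC. The matches in the printed windows did not overlap.
Il21, chr3:37232637-37232886, minus strand: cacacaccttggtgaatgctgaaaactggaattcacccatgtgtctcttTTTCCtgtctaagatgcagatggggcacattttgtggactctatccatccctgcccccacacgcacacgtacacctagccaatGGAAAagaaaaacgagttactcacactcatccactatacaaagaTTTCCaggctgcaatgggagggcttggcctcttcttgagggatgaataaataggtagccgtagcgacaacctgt
Tox2, outer start, chr2:163202877-163203126, plus strand: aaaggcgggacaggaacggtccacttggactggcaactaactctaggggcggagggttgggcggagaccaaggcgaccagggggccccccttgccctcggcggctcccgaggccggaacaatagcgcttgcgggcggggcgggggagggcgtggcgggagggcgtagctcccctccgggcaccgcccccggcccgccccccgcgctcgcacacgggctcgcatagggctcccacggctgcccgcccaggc
Tox2, inner start, chr2:163225203-163225452, plus strand: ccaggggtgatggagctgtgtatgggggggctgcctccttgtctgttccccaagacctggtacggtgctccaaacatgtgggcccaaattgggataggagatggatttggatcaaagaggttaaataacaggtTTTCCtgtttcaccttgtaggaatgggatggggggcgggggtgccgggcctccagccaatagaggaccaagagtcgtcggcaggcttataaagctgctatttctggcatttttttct
The *Il21* window held 3 matches to GGAAA, beginning at bases 50, 133 and 177 of the printed run, and none to the other motifs. *Tox2* has 5 listed start sites. The outer window held no match to any motif, whereas the inner window held 1 GGAAA at base 134 and 1 CTTTGA at base 112. Of the other 3 *Tox2* windows, 1 overlaps the inner one and holds the same matches, 1 held a TGACG and 1 none. The 2 windows of *Bcl6* held more, with 1 and 3 GGAAA, 1 and 3 matches to the STAT letters, 1 CTTTGA and 2 TGACG. The *Slamf6* window held no match and the *Tox4* window 1 TGACG. These are matches of letters and not measured binding.

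*Il21* (ENSMUSG00000027718.8, chr3:37222759-37232636, minus strand, GRCm38) encodes interleukin-21, the cytokine by which helper T cells drive germinal center B cells and plasma cells. It had 415.0, 660.0, 2461 and 1137 normalized counts in CCR8+ replicates 1 to 4, and 0, 56.6, 566 and 219 in CCR8- replicates 1 to 4. CCR8+ replicate 3 was the highest of all, and CCR8- replicate 3, the highest of its group, lay above CCR8+ replicate 1 only. The means were 1168 ± 913 and 210.4 ± 254 (SD, n = 4 each). In reads these were 384, 786, 2158 and 1306 against 0, 77, 645 and 193. On the scale of log2(normalized count + 1) the fold change was 4.18 (SE 1.61, 95% interval 0.65 to 7.71). The limma p of 0.0245 before adjustment became 0.838 after it, and the exact two-sided permutation test over the 70 assignments gave p = 0.0571, where the smallest value 4 against 4 can give is 0.0286. Without CCR8- replicate 1 the log2 fold change was 2.28 and the ratio of means 4.16.

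Within pairs, *Il21* differed by 3.52, 2.12 and 2.37 on the log2 scale in pairs 2, 3 and 4, and in pair 1 the CCR8- library had no read, which allows up to 2.96 normalized counts. DESeq2 on the recovered reads with the replicate number as a block gave a log2 fold change of 3.65 and an adjusted p of 0.0166, the only one of the 8 genes it called, where it called 0.724% of 11051 genes. DESeq2 without the block gave 2.47 (adjusted p = 0.978), and edgeR gave adjusted p-values of 0.999 without and 0.997 with the block. *Il21* shares 8.92% of its exonic bases with *Gm12534* on the opposite strand, and the use of strand in counting is not given in the sources used here.

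*Tox2* (ENSMUSG00000074607.11, chr2:163203125-163324170, plus strand) encodes a TOX protein found in Tfh cells. Its levels were 645, 410.6, 3437 and 664 normalized counts in CCR8+ replicates 1 to 4 and 0, 147, 655 and 149 in CCR8- replicates 1 to 4. As in *Il21*, CCR8+ replicate 3 was far above the rest and CCR8- replicate 3 alone reached into the CCR8+ range. The means were 1289 ± 1437 and 237.8 ± 287 (SD, n = 4 each), so the SD of the CCR8+ group was larger than its mean. With a log2 fold change of 3.84 (SE 1.65, 95% interval 0.22 to 7.46), *Tox2* had an unadjusted p of 0.0396 and an adjusted p of 0.838 by limma and an exact two-sided permutation p of 0.0857. Without CCR8- replicate 1 the log2 fold change was 1.86 and the ratio of means 4.07, and without it and CCR8+ replicates 1 and 3, a choice made after seeing the data, the log2 fold change was 1.10. Pairs 2, 3 and 4 differed by 1.48, 2.39 and 2.15. The annotation shows no exonic base shared with a gene on the opposite strand, and DESeq2 with the replicate block did not call it (adjusted p = 0.16).

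**Figure D1:**
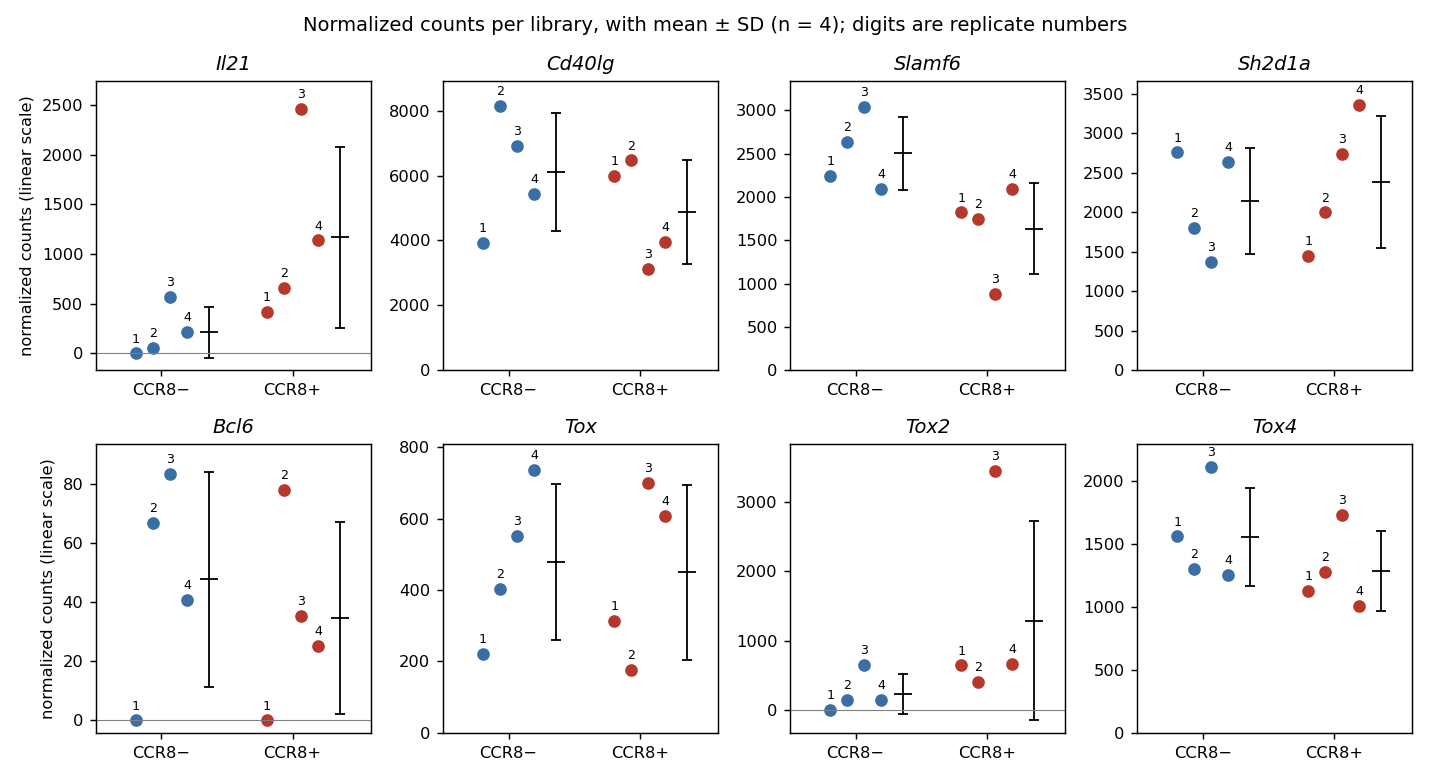
Normalized counts on a linear scale in each library (points, digits are replicate numbers), with mean ± SD (n = 4) beside each group. *Il21* and *Tox2* are highest in CCR8+ replicate 3 and at 0 in CCR8- replicate 1, and *Bcl6* lies at or below 83.3 in every library.

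*Il21* and *Tox2* followed each other across libraries. Pearson's r of their log2 values was 0.978 over the 8 libraries and 0.887 over the 7 without CCR8- replicate 1, a description of points that share the libraries and their depth. Among 8408 genes with a mean of at least 100, the genes most like *Il21* over the 8 libraries were *Rgs16* (r = 0.997), a regulator of G protein signaling, *Endod1* (0.992) and *Btbd19* (0.988). Those most like *Tox2* were *Osbpl3* (0.992), *Angptl2* (0.991) and *Hspa2* (0.989). In a repeat over the 7 libraries, chosen after seeing the data, *Rgs16* was again the nearest to *Il21* (0.991), whereas the 3 nearest to *Tox2* were then *Phlda1* (0.99), *Il10* (0.98) and *Hdc* (0.979). *Il10*, which encodes a cytokine that restrains immune responses, was not among the 3 nearest to *Tox2* over the 8 libraries. All these values are the highest of many correlations over few libraries. How high such values run among unrelated genes was not tested.

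**Figure D2:**
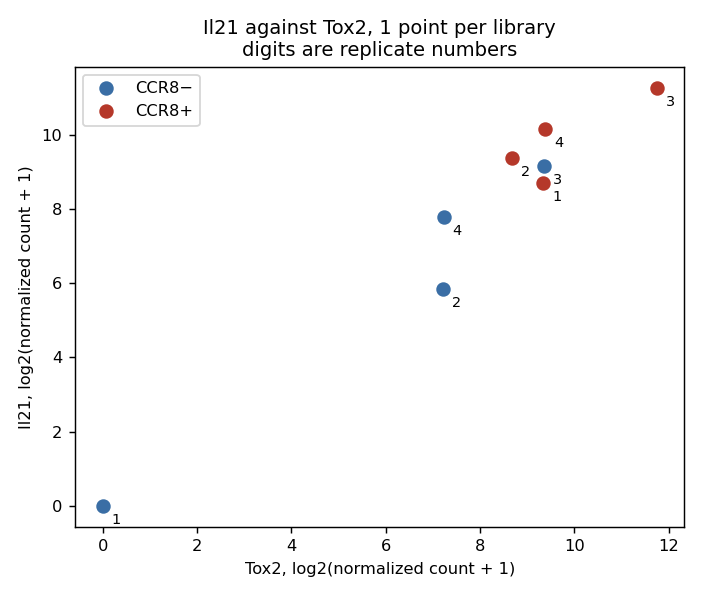
*Il21* against *Tox2*, each as log2(normalized count + 1), with 1 point per library and digits for replicate numbers. The points lie along a line, with CCR8+ replicate 3 at the top and CCR8- replicate 1 at 0 for both genes, and CCR8- replicate 3 lies among the CCR8+ libraries.

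The sort marker followed the same libraries. *Ccr8* had 7975, 6970, 42508 and 22965 normalized counts in CCR8+ replicates 1 to 4 and 2039, 1293, 6214 and 4637 in CCR8- replicates 1 to 4, so that in each group replicate 3 was highest in *Ccr8*, *Il21* and *Tox2*. The Treg cell list (6 of 7 in the table, *Foxp3* not analysed here) summed to between 19486 and 55649 in CCR8+ and between 10804 and 13512 in CCR8- libraries, and it was also highest in CCR8+ replicate 3. *Ctla4* made up most of this sum (43338 of 55649 in that library), and the list was mixed, with 2 genes higher and 1 lower at an unadjusted p under 0.05. *Itgae*, which encodes the integrin chain CD103, lay below without overlap, with 0 to 175 in CCR8+ and 251 to 1178 in CCR8- libraries and a log2 fold change of −4.60. The macrophage and monocyte list (10 of 10) summed to 3008 in that library and to 27636, 17708 and 18874 in CCR8+ replicates 1, 2 and 4, against 28.6 to 60570 in CCR8- libraries. The melanoma list (7 of 7) ranged from 232 to 21841 in CCR8+ and from 105 to 17389 in CCR8- libraries. The CD8 T cell list (2 of 2) summed to 478 to 1227 in CCR8+ and 980.1 to 3805 in CCR8- libraries, the NK cell list (4 of 5) to 25.9 to 208 and 4.93 to 677, and the dendritic cell list (5 of 7) to 345 to 579 and 279.8 to 1304. The macrophage and melanoma sums varied widely among the libraries of 1 group, and the part of these cells in the *Il21* and *Tox2* values was not tested. In bulk samples fewer cells of a type and less RNA per cell cannot be told apart.

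*Cd40lg* (ENSMUSG00000031132.1, chrX:57212143-57224042, plus strand) encodes CD40 ligand, the surface signal that activates B cells through CD40. It had 5990, 6466, 3115 and 3949 normalized counts in CCR8+ replicates 1 to 4 and 3922, 8157, 6906 and 5443 in CCR8- replicates 1 to 4. The ranges overlapped, and CCR8+ replicate 3, which was highest in *Il21*, was lowest in *Cd40lg*. The means were 4880 ± 1605 and 6107 ± 1831 (SD, n = 4 each). Between the groups the log2 fold change was −0.33 (SE 0.30, 95% interval −0.99 to 0.32, adjusted p = 0.845 by limma), and the CCR8+ library was higher in 1 of 4 pairs. Without CCR8+ replicate 3 the value was −0.14, and without replicate 3 of both groups −0.06.

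*Slamf6* (ENSMUSG00000015314.10, chr1:171917515-171953170, plus strand) encodes the SLAM family receptor Ly108. Its levels were 1820, 1742, 878 and 2087 normalized counts in CCR8+ replicates 1 to 4 and 2244, 2631, 3039 and 2093 in CCR8- replicates 1 to 4. The groups did not overlap, but the highest CCR8+ and the lowest CCR8- library, both replicate 4, lay only 5.69 normalized counts apart. With totals set to 1000000, with TMM factors and with quantile normalization the groups overlapped. Among all genes tested, 2.03% lay below and 2.37% above in every CCR8+ library without overlap. The means were 1632 ± 524 and 2502 ± 424 (SD, n = 4 each), 1.53 times higher in CCR8- cells. The fitted log2 fold change was −0.67 (SE 0.29, 95% interval −1.30 to −0.04), with an unadjusted p of 0.038 and an adjusted p of 0.838 by limma and an exact two-sided permutation p of 0.0286, the smallest possible. Without CCR8+ replicate 3, in which *Slamf6* was lowest, the log2 fold change was −0.40.

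*Sh2d1a* (ENSMUSG00000005696.11, chrX:42502453-42529330, plus strand) encodes SAP, which links *Slamf6* and related receptors to the kinase Fyn. It had 1444, 1997, 2732 and 3351 normalized counts in CCR8+ replicates 1 to 4 and 2755, 1799, 1365 and 2634 in CCR8- replicates 1 to 4. The ranges overlapped, and only the lowest CCR8- library, replicate 3, lay outside the CCR8+ range. The means were 2381 ± 835 and 2138 ± 668 (SD, n = 4 each), with a log2 fold change of 0.14 (SE 0.32, 95% interval −0.55 to 0.84, adjusted p = 0.94 by limma). *Tenm1*, on the opposite strand, overlaps 26.6% of its exonic bases. It was higher in CCR8+ cells in 3 of 4 pairs.

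*Bcl6* (ENSMUSG00000022508.5, chr16:23965052-23988852, minus strand) was the lowest of the 8 genes. It had 0, 78.1, 35.4 and 25.2 normalized counts in CCR8+ replicates 1 to 4 and 0, 66.9, 83.3 and 40.9 in CCR8- replicates 1 to 4. Replicate 1 was at 0 in both groups, and the other libraries interleaved. The recovered reads were 0, 93, 31 and 29 against 0, 91, 95 and 36. Its log2 fold change was −0.42 (SE 1.97, 95% interval −4.76 to 3.92, adjusted p = 0.971 by limma). The value was −1.91 without CCR8- replicate 1 and 0.93 without CCR8+ replicate 1. This wide interval comes from the spread between libraries, so neither a large increase nor a large decrease was detectable as such. *Bcl6* was higher in CCR8+ cells in 1 pair, lower in 2 and at 0 in both libraries of the other.

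*Tox* (ENSMUSG00000041272.11, chr4:6686353-6991557, minus strand) had 315, 176, 700.2 and 607 normalized counts in CCR8+ replicates 1 to 4 and 221, 404, 551 and 736 in CCR8- replicates 1 to 4. The ranges were nearly the same, with means of 449 ± 245 and 478 ± 219 (SD, n = 4 each). The log2 fold change was −0.15 (SE 0.54, 95% interval −1.34 to 1.04, adjusted p = 0.962 by limma), and 2 of 4 pairs were higher in CCR8+ cells. *Tox4* (ENSMUSG00000016831.12, chr14:52279146-52296401, plus strand) had 1124, 1275, 1731 and 1009 normalized counts in CCR8+ replicates 1 to 4 and 1558, 1299, 2107 and 1253 in CCR8- replicates 1 to 4. The groups overlapped, although each CCR8+ library was below its numbered counterpart. The log2 fold change of *Tox4* was −0.27 (SE 0.26, 95% interval −0.85 to 0.30, adjusted p = 0.847 by limma). *Rab2b* and *Mettl3*, on the opposite strand, overlap 16.2% of its exonic bases. Without CCR8- replicate 3 the *Tox4* value was −0.12.

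**Figure D3:**
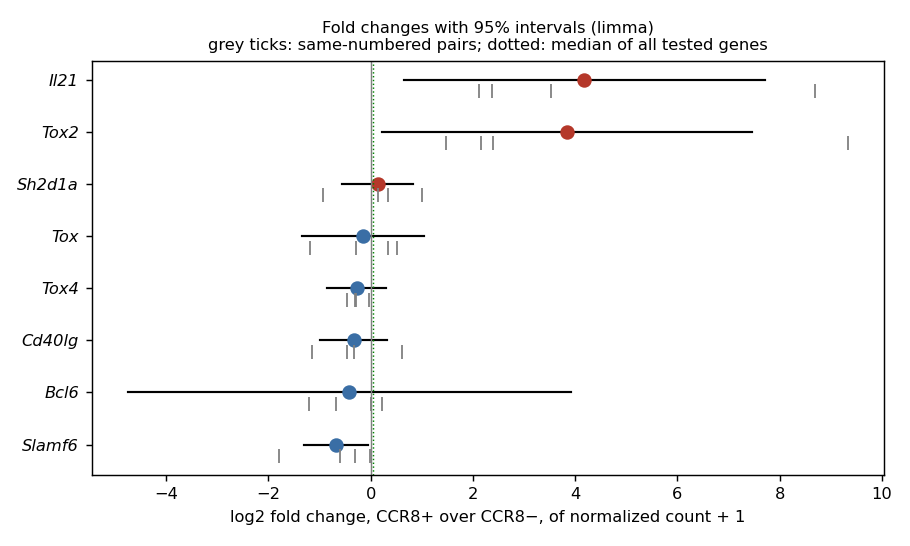
Log2 fold change of each of the 8 genes with its 95% interval from limma, grey ticks for the 4 same-numbered pairs and a dotted line for the median of all tested genes (0.04). The intervals of *Il21* (0.65 to 7.71) and *Tox2* (0.22 to 7.46) are wide and lie above 0, that of *Slamf6* (−1.30 to −0.04) lies below 0, and those of the other 5 genes include 0.

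The TOX family genes differed in their balance within a library. Per kilobase of exon, *Tox2* made up 48.3%, 36.9%, 74.8% and 46.5% of the summed level of *Tox*, *Tox2* and *Tox4* in CCR8+ replicates 1 to 4 and 0%, 15.3%, 33.9% and 13.6% in CCR8- replicates 1 to 4. Every CCR8+ library was above every CCR8- library in this share, which is given as a description. The ratio of *Tox2* to *Tox* normalized counts overlapped, with 1.09 in CCR8+ replicate 4 and 1.19 in CCR8- replicate 3. The level of *Tox2* itself also overlapped. How often such a share separates the groups for other genes was not tested. *Tox4* made up 41.2%, 56.0%, 18.4% and 34.5% in CCR8+ and 88.5%, 66.0%, 53.4% and 56.2% in CCR8- libraries, and these shares overlapped. *Tox* was the smaller part in most libraries, with 6.81% to 19.0% in CCR8+ and 11.5% to 30.2% in CCR8- cells.

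**Figure D4:**
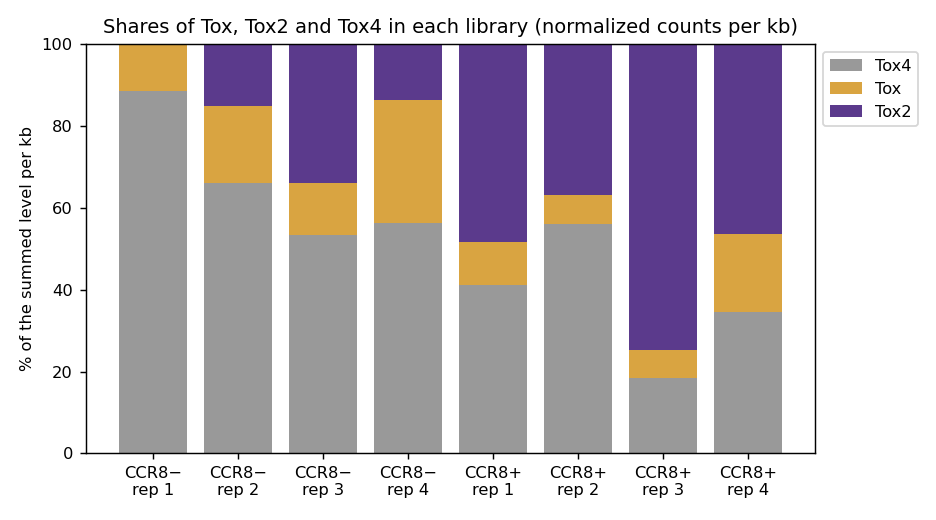
Share of *Tox*, *Tox2* and *Tox4* in their summed level (normalized counts per kilobase of exon, % of the sum) in each library. *Tox2* takes at least 36.9% in the CCR8+ libraries and at most 33.9% in the CCR8- libraries.

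Levels between genes were compared per kilobase of exon, as means of 4 libraries with their range. In CCR8+ cells the order was *Cd40lg* (3904 normalized counts per kilobase, 2492 to 5173), *Sh2d1a* (433, 262 to 609), *Tox2* (379, 121 to 1011), *Il21* (222, 78.9 to 468), *Tox4* (185, 145 to 249), *Slamf6* (151, 81.1 to 193), *Tox* (59.1, 23.2 to 92.0) and *Bcl6* (5.17, 0 to 11.7). Only *Cd40lg* and *Sh2d1a* at the top and *Tox* and *Bcl6* at the bottom were neighbors whose ranges did not overlap. In CCR8- cells the order was *Cd40lg* (4886, 3138 to 6526), *Sh2d1a* (388, 248 to 500.5), *Slamf6* (231, 193 to 281), *Tox4* (224, 180.2 to 303), *Tox2* (69.9, 0 to 193), *Tox* (62.8, 29.0 to 96.7), *Il21* (40.0, 0 to 108) and *Bcl6* (7.13, 0 to 12.4), and there only the ranges of *Cd40lg* and *Sh2d1a* were apart. By their means *Il21* and *Tox2* stood above *Slamf6* and *Tox4* in CCR8+ cells and below them in CCR8- cells. This order did not hold in every CCR8+ library. In replicate 1 *Il21* (78.9) lay below the lowest value of both *Slamf6* and *Tox4*. In replicate 2 *Tox2* had a smaller share of the TOX family level than *Tox4* (36.9% against 56.0%). Both *Il21* and *Tox2* were highest in replicate 3.

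Other genes of the Tfh program were read from lists chosen by function, with earlier results of these data known. Their counts are therefore a description and not a test of enrichment. The limma test called 0 genes in each of the 8 lists. Over the 11032 genes tested by limma, 562 (5.09%) had an unadjusted p under 0.05. Without overlap, 2.37% lay above and 2.03% below in every CCR8+ library. These shares stand beside the counts of every list below. At an unadjusted p under 0.05 there were 486 genes by edgeR and 603 by DESeq2, and DESeq2 called 23. Of 12 Tfh receptors and surface molecules, 1 had an unadjusted p under 0.05 in each direction, and the median log2 fold change was 0.31 (−0.17 without CCR8- replicate 1). *Cxcr5*, the chemokine receptor that takes Tfh cells into follicles, had 0, 0.84, 0 and 1.74 normalized counts in CCR8+ replicates 1 to 4 and 0, 0, 197 and 49.97 in CCR8- replicates 1 to 4. The CCR8+ values came from at most 2 reads, fewer than the 3 reads that a count of 0 allows. The level of this defining receptor of Tfh cells in CCR8+ cells was therefore not told apart from that of a library at 0. *Cxcr5* was also at 0 in CCR8- replicates 1 and 2, and the exact two-sided permutation p was 0.429. With *Bcl6* also the lowest of the 8, the genes are called by their names here and not taken to mark Tfh cells.

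*Pdcd1*, which encodes the inhibitory receptor PD-1 carried by Tfh and exhausted T cells, had 12496, 10939, 14877 and 17499 normalized counts in CCR8+ replicates 1 to 4 and 4115, 6784, 7246 and 10260.0 in CCR8- replicates 1 to 4. No CCR8- library reached the CCR8+ range, and the log2 fold change was 1.02 (SE 0.29, adjusted p = 0.829 by limma). *Gpr183*, which encodes the oxysterol receptor EBI2 that keeps cells at the outer follicle, lay the other way, with 1315 to 5492 in CCR8+ and 8007 to 11850 in CCR8- libraries and a log2 fold change of −1.58 (SE 0.40, adjusted p = 0.829 by limma). *Angptl2*, at the top of this list and among the genes most like *Tox2*, had a log2 fold change of 2.94 and was at 0 in CCR8- replicate 1.

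Of 8 tested factors that promote the Tfh program, 2 had an unadjusted p under 0.05 by limma in each direction. The share over all genes tested was 5.09% in either direction. The median of this list was −0.36. *Batf* (7560 to 15908 normalized counts in CCR8+ against 5560 to 7281 in CCR8- libraries) and *Stat3* (3842 to 7558 against 2801 to 3609), both of which act upstream of *Bcl6* and *Il21*, lay above without overlap, with log2 fold changes of 0.61 and 0.71. *Lef1*, which encodes a partner of TCF-1 in early Tfh cells, lay below without overlap, with 520.0 to 1357 in CCR8+ and 1493 to 2179 in CCR8- libraries and a log2 fold change of −1.17. Of 10 factors that oppose the program, 0 separated the groups, with 1 higher and 2 lower at an unadjusted p under 0.05 and a median of 0.19. *Il2ra*, which encodes the high-affinity IL-2 receptor chain, was at the upper end (log2 fold change 1.25, exact two-sided permutation p = 0.0857) and *Id3*, an inhibitor of E proteins, at the lower end (−2.84, exact two-sided permutation p = 0.114). *Prdm1*, which encodes the repressor Blimp-1 that opposes *Bcl6* and is named here after its values were seen, had a log2 fold change of −0.02.

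Among 15 tested SLAM receptors and partners of SAP, the median was −0.19, with 0 higher and 2 lower at an unadjusted p under 0.05. *Slamf7* lay below without overlap, with 101.5 to 725 normalized counts in CCR8+ and 733 to 1595 in CCR8- libraries and a log2 fold change of −1.27. *Slamf9* was at the lower end (−4.84, at most 28.5 in CCR8+ libraries) and *Cd244*, which encodes the receptor 2B4, at the upper end (0.78). Of 10 genes of IL-21 and IL-6 signaling, 1 was lower and 0 were higher at an unadjusted p under 0.05, and the median was 0.04 (−0.06 without CCR8- replicate 1). *Il21r*, the receptor of IL-21, had 3943, 6955, 4971 and 8821 normalized counts in CCR8+ replicates 1 to 4 and 542, 6098, 5496 and 5425 in CCR8- replicates 1 to 4, so that outside CCR8- replicate 1 the groups interleaved. *Il6st*, the signaling chain of the IL-6 receptor, was at the lower end (−1.73).

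The 9 co-repressors through which BCL6 acts had a median of −0.09, with 1 lower at an unadjusted p under 0.05, and ranged from *Gps2* (−0.69) to *Tbl1x* (1.16), both parts of the NCoR complex. The *Tbl1x* value rests on CCR8- replicate 1 (7.88 normalized counts). In 3 of 4 pairs *Tbl1x* was lower in CCR8+ cells, and its ratio of means was 1.07, or 0.80 without that library. The 5 genes of the phosphatase complex that holds TOX4 had a median of −0.22 (0.01 without CCR8- replicate 1) and ranged from *Wdr82* (−0.51) to *Ppp1cc* (0.15). Of 15 tested exhaustion genes, 3 were higher and 1 lower at an unadjusted p under 0.05 by limma, against 5.09% of all genes tested in either direction. Their median was 0.21 (−0.08 without CCR8- replicate 1). *Ctla4*, which encodes an inhibitory receptor and is also in the Treg cell list, lay above without overlap, with 15421 to 43338 normalized counts in CCR8+ and 7662 to 11692 in CCR8- libraries and a log2 fold change of 1.34 (SE 0.32, adjusted p = 0.829 by limma). *Lag3* was at the upper end (1.90, at most 102 normalized counts) and *Eomes*, a T-box factor of cytotoxic cells, at the lower end (−2.04).

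**Figure D5:**
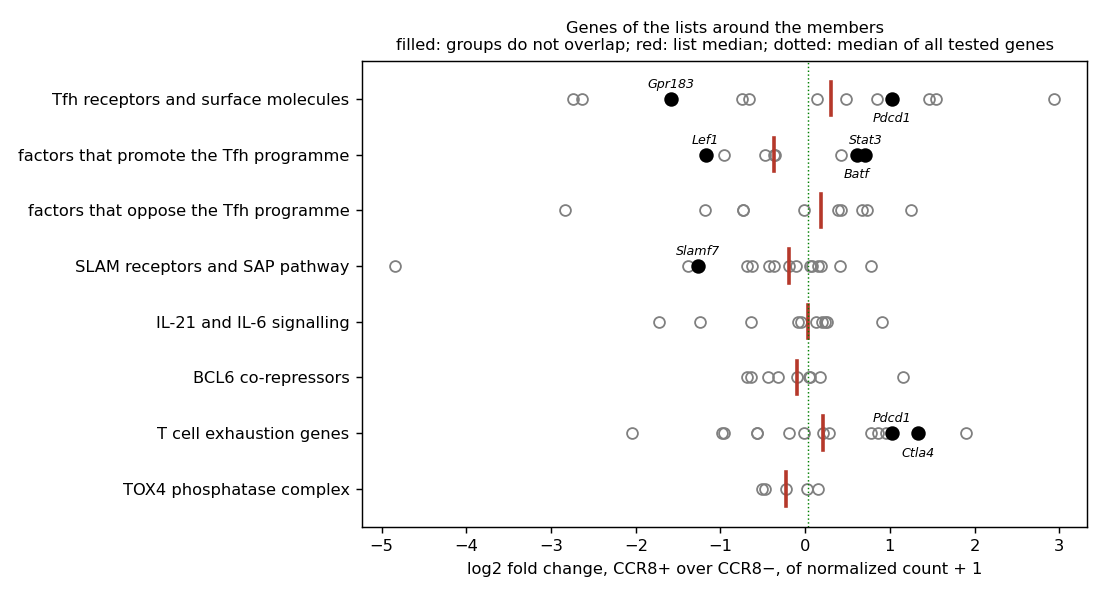
Log2 fold change of CCR8+ over CCR8- cells for each tested gene of the 8 lists (circles, filled where the groups do not overlap), with the list median in red and the median of all tested genes dotted (0.04). The filled genes are *Pdcd1* (1.02), *Ctla4* (1.34), *Batf* (0.61) and *Stat3* (0.71) above and *Gpr183* (−1.58), *Lef1* (−1.17) and *Slamf7* (−1.27) below.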

How the data were processed

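For each library the authors deposited a signal, namely read counts per gene divided by 1 factor. Per the methods they ran FastQC and Cutadapt, aligned reads with hisat2 to NCBIM37 (mm9), kept uniquely mapped reads and normalized to library size with intergenic reads. The submitters' processing notes also name HTSeq and DESeq2. The sources used here give neither versions nor whether counting was stranded. The values are named FPM, but library totals were 11469410 to 14394101, and whole reads were recovered for 100% of values (tolerance 0.1 reads). The limits that a count of 0 allows cover counting error only, whereas the 95% intervals come from limma and the spread between libraries. Unused columns numbered 0. Of 11233 genes 20 were at 0 throughout, and 1 name was listed more than once.

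Groups were read from the labels, 4 libraries each. Differences were tested with limma 3.58.1 (R 4.3.3), with an intensity trend and no replicate block. The values tested were log2(normalized count + 1) of 11032 genes whose mean reached 10, and the Benjamini-Hochberg adjustment covered all of these. A call needed a fold above 3 and an adjusted p under 0.05. The added 1 shrinks the fold changes of low genes, but a library at 0 can enlarge them on this scale. *Il21* and *Tox2*, at 0 in CCR8- replicate 1, had log2 fold changes of 4.18 and 3.84. With DESeq2 on recovered reads without the block these were 2.47 and 2.44. Single genes also had exact two-sided permutation tests. All 8 genes passed the limit on the mean. Alternatives were other scalings, pseudocounts and limits on the mean, limma variants, leaving out libraries, and edgeR 4.0.16 and DESeq2 1.42.0 on recovered reads with and without the block. Gene positions and exonic lengths came from GENCODE (GRCm38), which is newer than the build of the alignment and served only to locate genes, and promoters from RefSeq GRCm38.p6.

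The genes and lists were chosen with earlier results of these data known. Of each list the text names the genes whose groups do not overlap and those with the highest and lowest log2 fold change. For each of the 8 genes except *Bcl6*, whose mean was under 100, the 3 genes with the highest Pearson correlation are named. Some listed genes are not analysed or not reported here.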

Additional observations from a re-analysis of the deposited data

Results flagged for a closer look

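Of 92 groups of 4 libraries examined on the log2 scale, over the 8 genes and the named genes of the lists and markers, 11 held a library whose gap to the nearest of the others took more than 0.829 of the range of the group. For groups of normal values picked beforehand, this limit flags about 1 in 20. Most genes examined here were named for an extreme fold change or for separated groups. A group with reads in only 1 library is flagged by construction, and a group at 0 throughout cannot be flagged. The rate of 1 in 20 is therefore no baseline for the 11. In CCR8- replicate 1 these were *Bcl6* at 0 normalized counts, *Il21r* at 542 and *Tbl1x* at 7.88, all below the rest of the group. In CCR8+ replicate 3 *Slamf7* at 101.5, *Wdr82* at 35.4 and the macrophage marker *Adgre1* at 0 lay below the other CCR8+ libraries. *Lef1* at 1493 in CCR8- replicate 4 and *Cd3g* at 14710 in CCR8- replicate 3 were also low within their group. The only library of its group with any read was CCR8+ replicate 2 for *Slamf9* (28.5), CCR8+ replicate 1 for the dendritic cell gene *Flt3* (91.9) and CCR8- replicate 2 for the Treg cell gene *Gpr83* (13.2). *Slamf9* and *Gpr83* had reads in all 4 libraries of the other group, and *Flt3* in none.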

How the results depend on the processing

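The count of genes called was 0 in the main test. It was 2 with limma without the trend, 1 with limma and the replicate block, 23 with DESeq2 and 80 with DESeq2 and the replicate block, and 0 with edgeR with or without the block. Of the 8 genes, 1 was called, *Il21* with DESeq2 and the replicate block, and the other alternatives called 0. As a check of the pairing, the residuals of libraries with the same number had correlations of 0.0682, 0.138, 0.108 and 0.217, those of different numbers −0.17 to 0.10, and 7 of 8 libraries correlated best with their own number, so the pairing is a hint from the data and not from the design. The signs of *Il21*, *Tox2*, *Slamf6*, *Cd40lg* and *Tox4* were the same under all 27 alternatives. Leaving out 1 library at a time gave 2.28 to 5.33 for *Il21*, 1.86 to 4.97 for *Tox2*, −0.81 to −0.40 for *Slamf6*, −1.91 to 0.93 for *Bcl6*, −0.05 to 0.36 for *Sh2d1a*, −0.53 to −0.14 for *Cd40lg*, −0.43 to −0.12 for *Tox4* and −0.48 to 0.23 for *Tox*, on the log2 scale, and leaving out a replicate number gave −0.14 to 0.50 for *Sh2d1a*. *Bcl6* turned positive without CCR8+ replicate 1 (0.93), CCR8- replicate 2 (0.12) or CCR8- replicate 3 (0.23). *Sh2d1a* turned negative without CCR8+ replicate 4 (−0.05), CCR8- replicate 3 (−0.05) or replicate 3 of both groups (−0.14). *Tox* turned positive without CCR8+ replicate 2 (0.23), CCR8- replicate 4 (0.10) or replicate 2 of both groups (0.19). The cause was not tested. The median over the 8 genes was −0.37 without CCR8- replicate 1 and 0.16 without CCR8+ replicate 1. *Bcl6* gave no value with totals set to 1000000 or with a mean of at least 100, being too low. Scaling moved the median of all genes to between −0.04 and 0.04. The intervals of *Il21*, *Tox2* and *Bcl6*, each at 0 in at least 1 library, were the widest of the 8.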

Other observations

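Over the 8 libraries and 8408 genes with a mean of at least 100, the genes whose log2 values were most like those of *Sh2d1a* were *Romo1* (r = 0.965), *Tomm7* (0.964) and *Timm8b* (0.96), which encode small mitochondrial proteins. Those most like *Cd40lg* were *Dus2* (0.98), *Sike1* (0.952) and *Frmd4b* (0.951), those most like *Slamf6* were *Dnajb9* (0.984), *Sh2d3c* (0.98) and *Rfx1* (0.976), those most like *Tox* were *Gm5547* (0.922), *Gas5* (0.893) and *Imp3* (0.877), and those most like *Tox4* were *E430025E21Rik* (0.968), *Zfp777* (0.965) and *Tnik* (0.962). These values describe libraries that share their depth and sort, and they are the highest of many over few libraries. How high such values run among unrelated genes was not tested. Without CCR8- replicate 1, *Dnajb9* was again among the 3 nearest to *Slamf6* (0.985), and *E430025E21Rik* and *Tnik* among those to *Tox4* (both 0.971). The genes nearest to *Sh2d1a* were then *Tmbim4*, *Naca* and *Atp5o*, in place of *Romo1*, *Tomm7* and *Timm8b*. Among the 8 genes themselves, *Cd40lg* and *Slamf6* had r = 0.67 over 8 libraries and 0.78 without CCR8- replicate 1, and *Cd40lg* and *Il21* had −0.03 and −0.81, so that the latter value rests on which libraries are kept. *Cd40lg* and *Sh2d1a* had −0.77 and −0.74.

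The marker lists of other cells ran, from their lowest to their highest log2 fold change, from *Klrb1c* (−5.00) to *Klre1* (−0.99) for NK cells, *Cd79a* (−3.58) to *Cd40* (1.99) for B cells, *Cd209a* (−4.83) to *Flt3* (1.63) for dendritic cells, *Adgre1* (1.78) to *Csf1r* (3.30) for macrophages and *Mitf* (−2.14) to *Dct* (−0.64) for melanoma cells. T cell markers ran from *Thy1* (−0.63) to *Cd3g* (0.27), *Cd8b1* (−0.74) and *Cd8a* (−0.72) stood for CD8 T cells, and the Treg cell list ran from *Itgae* (−4.60) to *Gpr83* (3.92). None of these genes was called by limma. The macrophage list had a median log2 fold change of 2.26, and of 0.51 without CCR8- replicate 1. Mean levels of *Adgre1* were 215 normalized counts in CCR8+ and 219 in CCR8- libraries, with CCR8+ replicate 3 and CCR8- replicates 1 and 3 at 0.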
